A study of Mus musculus with 3 samples.

Results

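The α chains that define 2 innate-like T cell receptors, those of invariant natural killer T (iNKT) cells and of mucosal-associated invariant T (MAIT) cells, were traced in T cells of inflamed sciatic nerve. Members were all productive T cell receptor α (TRA) contigs whose V gene was named TRAV1, TRAV11 or TRAV11D. There were 83 such cells among 5269 cells with a productive TRA: 72 with TRAV1, 11 with TRAV11 and 0 with TRAV11D. The samples were CD45+ cells sorted from sciatic nerves of neuropathic NOD.AireGW/+ mice, nonobese diabetic mice heterozygous for the GW allele of Aire, the autoimmune regulator of thymic tolerance. All 3 libraries belonged to this condition, and neither a wild-type nor an untreated group was among them. Replicates 1 and 2 held 1 mouse each and replicate 3 pooled 2 mice. The assay was droplet-based single-cell TCR-Seq (scTCR-Seq), which reads the rearranged TRA and β chain (TRB) transcripts of a cell and counts them by unique molecular identifier (UMI).

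In the mouse, most iNKT cells carry an α chain in which TRAV11 is joined to TRAJ18, paired with a limited set of β chains, and recognize lipids presented by CD1d. MAIT cells carry an α chain in which TRAV1 is joined to TRAJ33 and recognize vitamin B2 metabolites presented by MR1. Both V genes can also join other J segments, so the V gene alone does not mark the invariant receptor. Gene expression, CD1d or MR1 tetramer binding and the CD4 or CD8 status of the cells were not analysed here, and "iNKT-type" and "MAIT-type" therefore name the receptor only.

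Replicate 1 had 1989 cells with a TRA, replicate 2 had 2819 and replicate 3 had 461. The median productive TRA had 5, 3 and 3 UMIs. All intervals given are 95% Clopper-Pearson intervals (exact), and they cover counting error only. Replicates 1 and 2 shared 7 cell barcodes and replicates 2 and 3 shared 3, and 0 member cells lay on a shared barcode.

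The segments lie on chromosome 14 of GRCm38. TRAV1, at chr14:52427928-52428876, is the V gene farthest from the J segments, with 0 of the 128 annotated TRAV genes beyond it and 1756 kb between it and TRAJ33. TRAV11 is at chr14:53519303-53519859, 665 kb from TRAJ33, and its duplicate TRAV11D is at chr14:52824357-52824912. The V exons of TRAV11 and TRAV11D differed at 0 of 290 bases in the reference, so a contig of either origin would have the same reference sequence. TRAJ33 is at chr14:54185358-54185414 and TRAJ18 at chr14:54200777-54200842.

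The ends that meet in the 2 invariant chains are shown first, because they show how much of each junction is germline. Each V end runs from the codon of the conserved cysteine (chr14:53519847-53519859 and chr14:52428863-52428876), and each J start runs to the codon that closes the CDR3, the loop formed by the junction (chr14:54200777-54200811 and chr14:54185358-54185383). All are on the + strand, 5′ to 3′.
TRAV11 end: tgtgtggtgggcg
TRAJ18 start: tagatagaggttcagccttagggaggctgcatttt
TRAV1 end: tgtgctgtgaggga
TRAJ33 start: tggatagcaactatcagttgatctgg

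The nucleotide CDR3s of the TRAV11-TRAJ18 cells follow, with capitals for bases that matched neither germline end of GRCm38.
TRAV11-TRAJ18 in replicates 1 and 2, 3 cells: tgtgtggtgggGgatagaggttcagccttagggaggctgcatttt
TRAV11-TRAJ18 in replicate 2, 2 cells: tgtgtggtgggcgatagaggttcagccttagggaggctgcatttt
TRAV11-TRAJ18 in replicate 2, 1 cell: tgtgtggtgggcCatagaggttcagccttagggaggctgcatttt
TRAV11-TRAJ18 in replicate 3, 1 cell: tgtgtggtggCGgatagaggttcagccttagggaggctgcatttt

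The nucleotide CDR3s of the TRAV1-TRAJ33 cells were these, written in the same way.
TRAV1-TRAJ33 in all 3 libraries, 15 cells: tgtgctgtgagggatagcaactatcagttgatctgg
TRAV1-TRAJ33 in replicate 2, 1 cell: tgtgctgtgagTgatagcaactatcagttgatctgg
TRAV1-TRAJ33 in replicate 2, 1 cell: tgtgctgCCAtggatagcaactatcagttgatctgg

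iNKT-type chains were rare in every library. TRAV11 was joined to TRAJ18 in 1 cell of replicate 1, 5 cells of replicate 2 and 1 cell of replicate 3. These were 0.0503% (interval 0.00127% to 0.280%), 0.177% (0.0576% to 0.413%) and 0.217% (0.00549% to 1.20%) of the cells with a TRA, and the intervals overlapped. TRAV11 of any junction was 0.210% ± 0.00821 (SD, n = 3 libraries), which rests on 4, 6 and 1 cells. The libraries were less alike with chains of at least 3 UMIs, at 0.187%, 0.0514% and 0.379%, and in cells with exactly 1 TRA and 1 TRB, at 0.0624%, 0.135% and 0.271%.

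MAIT-type chains were concentrated in replicate 2. TRAV1 was joined to TRAJ33 in 1, 15 and 1 cells, or 0.0503% (interval 0.00127% to 0.280%), 0.532% (0.298% to 0.876%) and 0.217% (0.00549% to 1.20%) of the cells with a TRA. The intervals of replicates 1 and 2, from 1 mouse each, were separated narrowly, at 0.280% and 0.298%, whereas that of replicate 3 overlapped both. They treat cells as independent, but the 15 cells of replicate 2 made 13 pairs of TRA and TRB, so they are too narrow. Whether the 2 libraries differ with the cells of a clone counted once was not tested. TRAV1 with any other J was more common: 17, 34 and 4 cells, or 0.855%, 1.21% and 0.868%. TRAV1 as a whole was 1.24% ± 0.439 (SD, n = 3 libraries) of the cells, and it ranked 32 of 68 TRAV genes by number of rearrangements, where TRAV11 ranked 56.

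**Figure D1:**
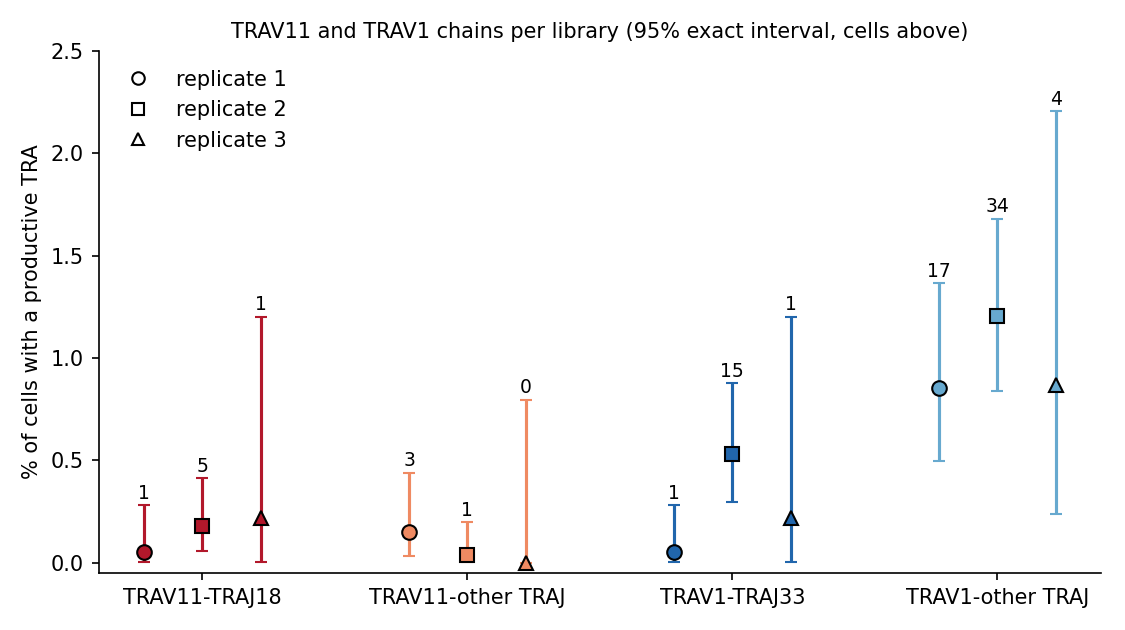
Share of cells with a productive TRA (y axis, percent) that carried each kind of chain (x axis) in replicates 1 (circles), 2 (squares) and 3 (triangles), with exact 95% intervals and the number of cells above each. TRAV1-TRAJ33 was highest in replicate 2, with 15 cells, and the 3 intervals of TRAV11-TRAJ18 overlapped.

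Counting all chains, TRAV11 was joined to TRAJ18 more often than other V genes were in each library. Cells of a library with the same V gene, J gene and CDR3 bases were counted as 1 rearrangement. Of the TRAV11 rearrangements, 1 of 4, 3 of 4 and 1 of 1 used TRAJ18 in replicates 1, 2 and 3, whereas 2.20%, 2.71% and 4.07% of those of other V genes did. The difference was 63.7 ± 37.3 percentage points (SD, n = 3 libraries) and was positive in 3 of 3 libraries (exact sign permutation test over libraries, two-sided, p = 0.25, the smallest p that 3 libraries allow). The spread was wide because replicate 1 held 3 TRAV11 rearrangements with other J segments, TRAJ32, TRAJ40 and TRAJ50. Replicate 2 held 1 more, with TRAJ27. In cells with exactly 1 TRA and 1 TRB, the difference was 97.2 ± 0.623 percentage points. That filter removed every TRAV11 cell with another J, since all of them held a second TRA, and left 1, 3 and 1 cells with TRAJ18. The larger value thus follows from the removal, and its SD is the spread of the other V genes. With chains of at least 3 UMIs it was 63.2 ± 56.8, positive in 2 of 3 libraries and -2.39 in replicate 1, whose iNKT-type chain had 2 UMIs.

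TRAV1 was joined to TRAJ33 in 1 of 13, 3 of 25 and 1 of 4 rearrangements, against 1.56%, 1.91% and 2.56% of the rearrangements of other V genes. The difference was 12.9 ± 8.50 percentage points (SD, n = 3 libraries), positive in 3 of 3 libraries (exact sign permutation test, two-sided, p = 0.25, the smallest possible). Counting rearrangements merges the cells of replicate 2 that share the fully germline sequence. By cells, TRAJ33 made up 5.56%, 30.6% and 20.0% of TRAV1 chains against 1.34%, 1.68% and 2.31% of the others, and by distinct pairs of TRA and TRB the difference was 20.3 percentage points. With chains of at least 3 UMIs only, it was 3.26 percentage points and was positive in 2 of 3 libraries, since 12 of the 17 MAIT-type chains had fewer. Without replicate 3, where 1 of 4 rearrangements used TRAJ33, the difference was 8.11.

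Neither J segment was reserved for these V genes. TRAJ18 was found in 94 rearrangements with 42 V genes, of which 5 were with TRAV11 and 3 with TRAV1. TRAJ33 was found in 66 rearrangements with 36 V genes, of which 5 were with TRAV1 and 0 with TRAV11. The 3 cells with TRAV1 joined to TRAJ18 had CDR3s of 14, 14 and 16 residues, and so had neither the J segment nor the length of the MAIT-type chain.

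Among TRAJ segments joined in at least 3 rearrangements, TRAV1 also used TRAJ23 (7 rearrangements in 7 cells), TRAJ32 (4 in 14 cells), TRAJ21 (4 in 5 cells) and TRAJ18. Each TRAJ23 rearrangement was in 1 cell, whereas those of TRAJ32 were in 2 to 6 cells. Among the rearrangements of other V genes, 21.6% were in more than 1 cell. Whether the 2 J segments differ in this was not tested. The 42 TRAV1 rearrangements used 21 TRAJ segments, from TRAJ9 to TRAJ45. TRAJ segments numbered above 45, which lie nearest to the V genes, were used by 0 of 13, 0 of 25 and 0 of 4 TRAV1 rearrangements, against 26.1%, 22.6% and 23.9% of those of other V genes. This comparison was chosen after its values were seen. Its limit is the highest TRAJ number that TRAV1 joined, so the count of 0 in every library was fixed by the choice. The difference was -24.2 ± 1.82 percentage points (SD, n = 3 libraries; exact sign permutation test, two-sided, p = 0.25, the smallest possible). Its sign was fixed in the same way and its SD is the spread of the other V genes, so the test decides nothing.

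**Figure D2:**
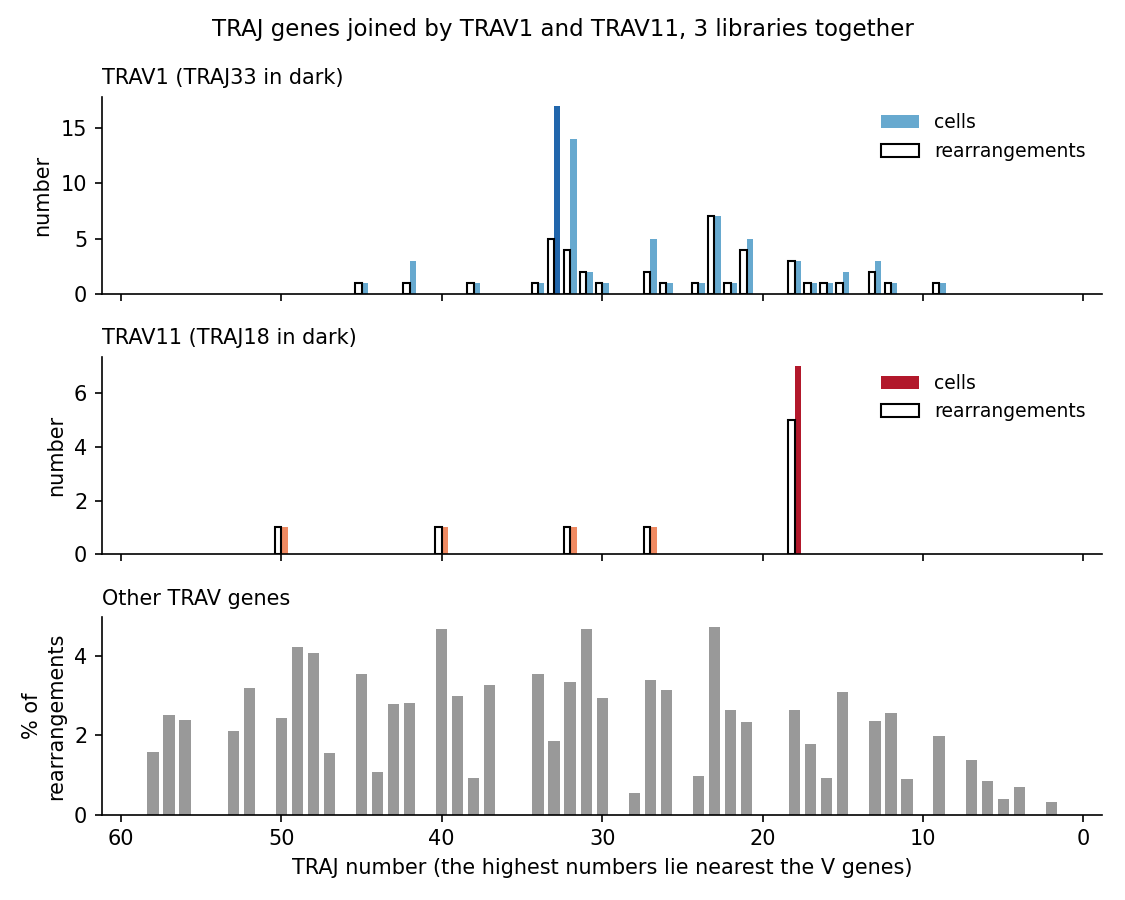
TRAJ segments (x axis, by number, with those nearest the V genes at the left) joined by TRAV1 (top) and TRAV11 (middle), as cells (filled) and rearrangements (open), and by all other TRAV genes (bottom, percent of rearrangements). TRAV1 has its tallest bar at TRAJ33, with 17 cells in 5 rearrangements, and none above TRAJ45, and TRAV11 has 7 of its 11 cells at TRAJ18.

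Every iNKT-type and MAIT-type chain had the length of its invariant receptor. All 5 TRAV11-TRAJ18 rearrangements encoded a CDR3 of 15 residues, counting the conserved first and last residues, and all 5 TRAV1-TRAJ33 rearrangements encoded 12. Among other TRA rearrangements, 15 residues were found in 17.1%, 15.1% and 16.0% of replicates 1, 2 and 3, and 12 residues in 14.5%, 13.5% and 14.5%. The differences were 83.9 ± 0.994 and 85.8 ± 0.574 percentage points (SD, n = 3 libraries), each positive in 3 of 3 libraries (exact sign permutation tests, two-sided, p = 0.25 each, the smallest possible). The invariant side of each rests on 1, 3 and 1 rearrangements, all of the same length, so these SDs are the spread of the other rearrangements only. J segments differ in length, so the same J with other V genes is a closer comparison, added after the values were seen. There, 29 of 89 TRAJ18 rearrangements had 15 residues, over a range of 12 to 18, and 17 of 61 TRAJ33 rearrangements had 12, over a range of 10 to 15. The differences from these were 70.3 ± 9.64 and 75.7 ± 12.4 percentage points (SD, n = 3 libraries). TRAV1 with other J segments ranged from 11 to 17 residues and TRAV11 with other J segments from 13 to 17.

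The MAIT-type sequence found in all 3 libraries held 0 non-germline bases. Its 14 V bases and 25 J bases overlapped by 3, which either segment could have given. The other 2 MAIT-type sequences held 1 and 3 non-germline bases. The iNKT-type sequences held 0, 1, 1 and 2 non-germline bases, in the order of few to many, and the form with 0 was found in 2 cells of replicate 2. By comparison, rearrangements of other V genes had a median of 3 non-germline bases, and 11.5% of the 2403 that could be matched had 0. TRAV1 joined to other J segments had a median of 3 and a range of 0 to 8, over 24 of its 37 rearrangements. The reference is C57BL/6, not NOD: 7 TRAJ segments, TRAJ32 among them, stopped matching at the same base in at least 70% of their rearrangements and were left out of these counts. TRAJ18 and TRAJ33 were not among the 7.

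Different nucleotides encoded the same residues in 1 case. The iNKT-type forms that are printed with the single capital G and with no capital encode the same CDR3, so the 4 nucleotide sequences made 3 amino acid sequences, and the 3 MAIT-type sequences made 3. The iNKT-type form in replicates 1 and 2 and the MAIT-type form in all 3 libraries were the only member rearrangements, of 48, found in more than 1 library. Among all 3278 TRA nucleotide rearrangements, 41 were in more than 1 library and 6 in all 3, of which the MAIT-type form was the second most frequent by cells. The residues of the MAIT-type and iNKT-type CDR3s were found with 0 other V genes.

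The upstream V region of the contigs could be compared in replicates 2 and 3, whose annotation gives it. All 49 and 5 TRAV1 chains differed from the reference TRAV1 at 8 of 261 bases, and all 6 and 1 TRAV11 chains differed from both TRAV11 and TRAV11D at 4 of 267. The counts were the same in each chain. Whether they are NOD alleles was not tested. TRAV11 and TRAV11D could not be told apart.

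Each iNKT-type cell had its own β chain, and all 7 were of the same V gene. The V gene name was TRBV12-2+TRBV13-2 in all 7 cells, a composite name for which the genome has no segment of its own. In replicates 2 and 3 the V region of the 14 such TRBs of member cells matched TRBV13-2 (chr6:41121396-41121832) at all 270 bases and differed from TRBV12-2 at 151. The composite name or TRBV13-2 was found in 11.7%, 14.8% and 16.4% of other paired cells. TRBV13, TRBV29 or TRBV1, the known partners of iNKT cells, were found in 1 of 1, 5 of 5 and 1 of 1 iNKT-type cells, against 35.0%, 44.0% and 40.8% of other paired cells. The difference was 60.1 ± 4.55 percentage points (SD, n = 3 libraries), positive in 3 of 3 libraries (exact sign permutation test, two-sided, p = 0.25, the smallest possible). With the composite name not counted as TRBV13, the difference was -30.2, since every iNKT-type cell carries it. TRBV29 and TRBV1 were found in 0 of the 7 cells.

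The β chain CDR3s of the 7 iNKT-type cells are shown because their J segments and junctions differ while the V gene does not. They are written in lower case throughout.
TRBV12-2+TRBV13-2 TRBJ2-5, replicate 1: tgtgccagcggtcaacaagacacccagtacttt
TRBV12-2+TRBV13-2 TRBJ1-2, replicate 2: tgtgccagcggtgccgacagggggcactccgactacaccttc
TRBV12-2+TRBV13-2 TRBJ1-4, replicate 2: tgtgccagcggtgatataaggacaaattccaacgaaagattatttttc
TRBV12-2+TRBV13-2 TRBJ2-1, replicate 2: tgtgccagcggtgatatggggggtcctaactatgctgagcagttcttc
TRBV12-2+TRBV13-2 TRBJ2-3, replicate 2: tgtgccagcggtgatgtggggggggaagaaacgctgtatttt
TRBV12-2+TRBV13-2 TRBJ2-7, replicate 2: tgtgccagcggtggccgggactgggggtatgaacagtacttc
TRBV12-2+TRBV13-2 TRBJ2-7, replicate 3: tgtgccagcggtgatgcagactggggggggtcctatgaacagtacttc

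These CDR3s ranged from 11 residues in replicate 1 to 16, and 6 TRBJ segments were used. The TRB with TRBJ2-1 was in 1 further cell, which had no TRA, so the largest iNKT-type clone as defined by its β chain had 2 cells. The iNKT-type cells were thus neither copies of 1 clone nor members of large clones.

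The β chains of the MAIT-type cells were more varied in V gene. The 17 cells carried 15 TRBs of 9 TRBV names: 7 cells had a TRBV13 family gene, with 3 TRBV13-3, 3 composite and 1 TRBV13-1, and 2 each had TRBV19, TRBV1, TRBV29 and TRBV5. TRBV2 and TRBV16 were found in 1 cell each. TRBV13 or TRBV19, the known partners of MAIT cells, were found in 1 of 1, 8 of 15 and 0 of 1 MAIT-type cells, against 48.0%, 41.1% and 41.6% of other paired cells. The difference was 7.53 ± 46.9 percentage points (SD, n = 3 libraries) and was positive in 2 of 3 libraries (exact sign permutation test, two-sided, p = 0.75). Replicates 1 and 3 rest on 1 cell each, and without replicate 1 the difference was -14.7. In replicate 2 alone, the interval of the share was 26.6% to 78.7%, which contained the 41.1% of the other cells. With chains of at least 3 UMIs, which leave 1 and 4 MAIT-type cells in replicates 1 and 2 and 0 in replicate 3, the difference was 37.8 percentage points and positive in 2 of 2 libraries.

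**Figure D3:**
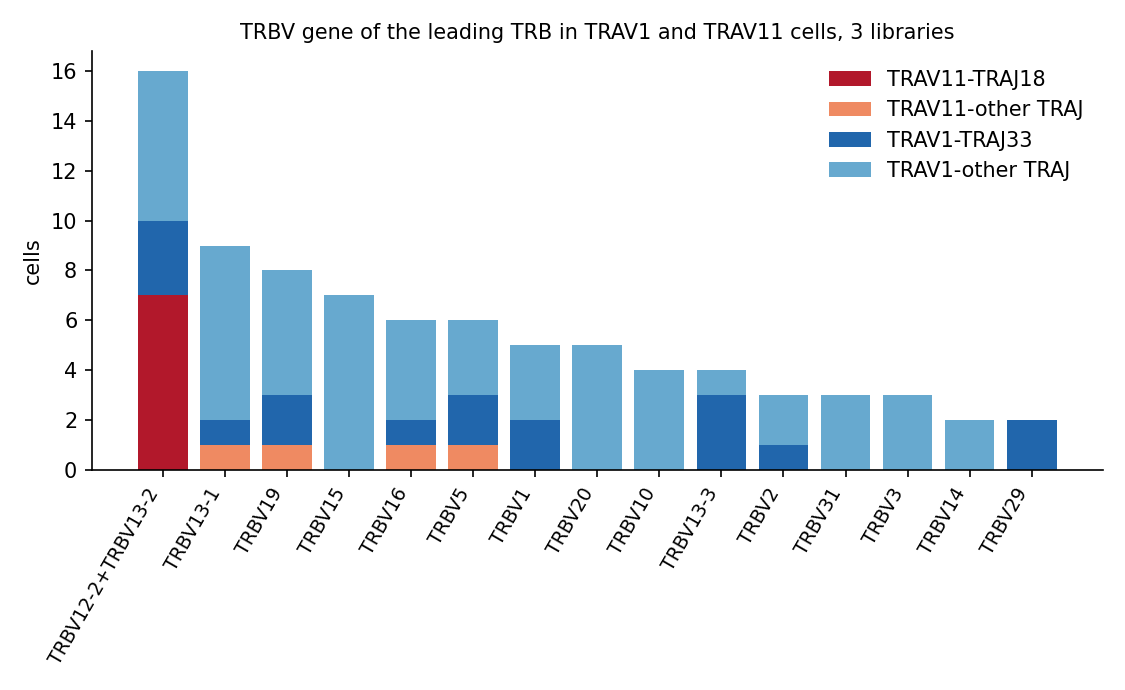
Number of member cells (y axis) by the TRBV gene of their leading TRB (x axis), stacked by kind of α chain, over the 3 libraries. All 7 TRAV11-TRAJ18 cells are in the bar of the composite TRBV12-2+TRBV13-2, and the 17 TRAV1-TRAJ33 cells are spread over 9 bars.

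The shared MAIT-type α chain was carried by many clones. In replicate 2 its 13 cells had 11 different TRBs, and the largest of them was in 2 cells. Across the libraries the same sequence was seen in 15 cells with 13 TRBs. Among rearrangements of at least 5 cells in replicate 2, 95 with other V genes had a median of 1 and a maximum of 5 TRBs, so 0 reached the 11 of this chain. In replicate 1 the maximum over 47 such rearrangements was 4, and in replicate 3 it was 1 over 3. These counts take chains of any UMI number. With chains of at least 3 UMIs, 4 MAIT-type cells of replicate 2 were left, under the minimum of 5 cells. The comparison therefore rests on chains with few UMIs. The most widespread TRAV1 rearrangement outside TRAJ33, with TRAJ32 in 6 cells of replicate 2, had 3 TRBs, and 4 of its cells shared the same TRB.

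**Figure D4:**
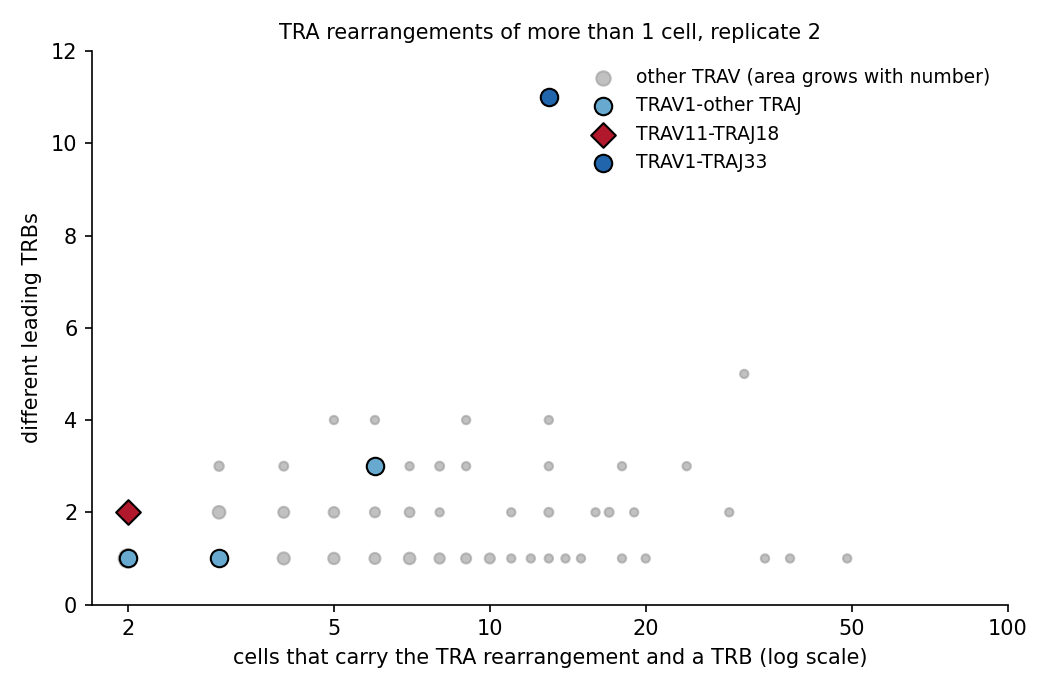
Different leading TRBs (y axis) against cells with the chain and a TRB (x axis, log scale) for each TRA rearrangement of more than 1 cell in replicate 2, with members in colour and other TRAV genes in grey. The germline TRAV1-TRAJ33 chain, with 13 cells and 11 TRBs, lies above all others, whose highest value is 5. Chains of any UMI number are counted, and 4 MAIT-type cells of replicate 2 had at least 3 UMIs of the chain.

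Of the 15 TRBs of MAIT-type cells, 2 were in 2 MAIT-type cells each. One pair carried TRBV29 and TRBJ2-2, and the other carried the composite TRBV and TRBJ2-3 together with a second TRA, TRAV6-6 joined to TRAJ6, in both cells. Their CDR3s are shown as the MAIT-type β chains that were seen again.
TRBV29 TRBJ2-2, 2 cells: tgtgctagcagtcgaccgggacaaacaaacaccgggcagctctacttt
TRBV12-2+TRBV13-2 TRBJ2-3, 2 cells: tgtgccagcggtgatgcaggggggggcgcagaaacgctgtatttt

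A further 4 of the 15 TRBs were in 1 cell without the MAIT-type chain. In 3 of these the other cell had no TRA at all. In the fourth, of TRBV5 and TRBJ2-3, the other cell carried TRAV13-1 joined to TRAJ22 and TRAV12D-2 joined to TRAJ18, and the MAIT-type cell carried TRAV12D-2 joined to TRAJ18 as well, with 7 UMIs beside 2 UMIs of the MAIT-type chain.

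Invariant chains were read from few UMIs. In replicate 2, 11 of 15 MAIT-type chains and 4 of 5 iNKT-type chains had fewer than 3 UMIs, against 31.9% of chains of other V genes and 26.5% of TRAV1 chains with other J segments. The medians were 2, 1, 3 and 4 UMIs. The single iNKT-type chains of replicates 1 and 3 had 2 and 8 UMIs, and the single MAIT-type chains had 3 and 2. With chains of at least 3 UMIs only, 5 MAIT-type cells (1, 4 and 0 per library) and 2 iNKT-type cells (0, 1 and 1) were left. Over the 3 libraries together, the matching TRBs had medians of 3 UMIs in MAIT-type and 6 in iNKT-type cells, against 7 in cells of other V genes. In replicate 2 alone these medians were closer, at 4, 5 and 6. The part of UMI depth in the counts of MAIT-type and iNKT-type cells was not tested.

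**Figure D5:**
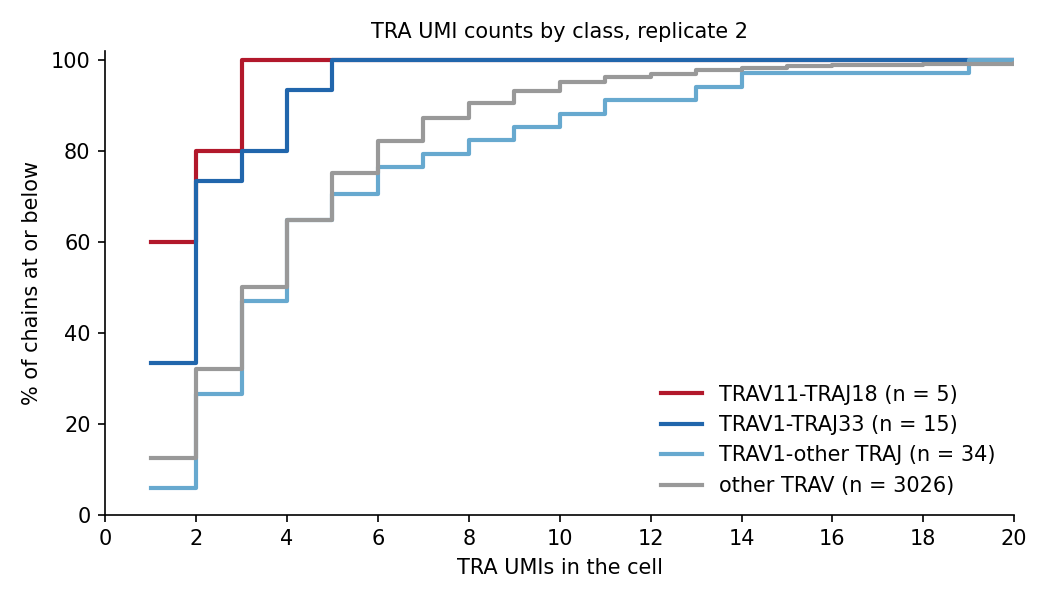
Cumulative share of TRA chains (y axis, percent) at or below a number of UMIs (x axis) in replicate 2, for TRAV11-TRAJ18, TRAV1-TRAJ33, TRAV1 with other TRAJ and all other TRAV genes. The TRAV11-TRAJ18 and TRAV1-TRAJ33 curves rise first, with 4 of 5 and 11 of 15 chains under 3 UMIs, against 31.9% for other TRAV genes.

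Many TRAV1 chains shared their cell with a second TRA. A second productive TRA was found in 6 of 18, 20 of 49 and 0 of 5 TRAV1 cells, and in 36.1% of them in all. A cell with 2 TRAs counts for 2 V genes, so the fair comparison is with other V genes counted in the same way: over 52 V genes with at least 20 cells, the median was 15.5% and the range 4.17% to 46.2%, and 2 of them were above TRAV1. The cells with TRAV1 and another J accounted for 23 of the 26. By chains, the difference from other TRAs was 10.5 ± 16.9 percentage points (SD, n = 3 libraries), positive in 2 of 3 libraries (exact sign permutation test, two-sided, p = 0.5), and it was chosen after the values were seen. Cells of a clone repeat the same second TRA, and with 1 cell per rearrangement the difference was 5.89. It was 3.64 without replicate 2 and 19.9 without replicate 3. Cells that hold a second TRA may include doublets, that is droplets with more than 1 cell, which were not removed. A second TRB was found in 9 of the 55 cells with TRAV1 and another J and in 0 of the 17 MAIT-type cells, against 6.48% of cells of other V genes, and the part of doublets was not tested. All 4 TRAV11 chains with other J segments also lay in cells with a second TRA, and the other chain had more UMIs in 3 of them. Of the 7 iNKT-type cells, 5 had the invariant chain as their only TRA. The other 2 (28.6%) held a second TRA with more UMIs than the invariant chain. Of the 17 MAIT-type cells, 3 held a second TRA, which had more UMIs than the MAIT-type chain in 2 and as many in 1.

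Among TRAV1 chains with other J segments, the largest rearrangements were these, shown because each is the largest TRAV1 rearrangement outside TRAJ33 in its library, with capitals for bases outside both germline ends (for TRAJ32, part of these may be germline in NOD).
TRAV1-TRAJ27 in replicate 1, 3 cells: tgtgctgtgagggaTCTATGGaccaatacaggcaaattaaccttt
TRAV1-TRAJ32 in replicate 1, 3 cells: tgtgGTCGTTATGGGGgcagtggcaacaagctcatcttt
TRAV1-TRAJ32 in replicate 2, 6 cells: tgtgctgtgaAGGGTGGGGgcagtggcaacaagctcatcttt
TRAV1-TRAJ21 in replicate 3, 2 cells: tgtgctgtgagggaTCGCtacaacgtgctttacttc

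The TRAJ27 chain of replicate 1 was paired with TRBV15 in all 3 of its cells, each of which also held TRAV7D-3 joined to TRAJ12. The same TRB was in 6 cells in all. The TRAJ32 chain of replicate 1 had its TRBV1 in 3 of 3 cells, beside a second, stronger TRB in 1 of them. The TRAJ32 chain of replicate 2 had TRBV20 in 4 of 6 cells, and those 4 also shared TRAV7-4 joined to TRAJ15. The TRAJ21 chain of replicate 3 had TRBV19 in both cells.

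The other TRAV1 clones had 2 or 3 cells. In replicate 2, TRAJ32 was also joined in 3 cells with TRBV10 and in 2 cells with TRBV31, TRAJ42 in 3 cells with TRBV15, TRAJ13 in 2 cells with the composite TRBV and TRAJ15 in 2 cells with TRBV13-1. In replicate 1 a further TRAJ27 rearrangement was in 2 cells with TRBV16. Every one of these clones kept a single leading TRB across its cells, unlike the germline MAIT-type chain. Over all 55 cells with TRAV1 and another J, the leading TRBs had 14 TRBV names, led by TRBV13-1 and TRBV15 with 7 cells each and the composite name with 6, and TRBV29 was not among these leading TRBs.

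Of 75 TRBs of member cells, 2 had the same V gene, J gene and CDR3 residues as a TRB in another library. The TRB of composite V name and TRBJ2-5 in 2 cells with the TRAJ32 chain of replicate 2 had the same bases in 1 cell of replicate 3, where the α chain was TRAV21-DV12 joined to TRAJ57. The other, of TRBV19 and TRBJ2-7, was in 1 TRAV1-TRAJ17 cell of replicate 2 and differed in bases from that of replicate 1. Neither belonged to an iNKT-type or MAIT-type cell.

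TRAV1 rearrangements of more than 1 cell were 3 of 13, 7 of 25 and 1 of 4, against 21.7%, 23.3% and 14.1% of other TRA rearrangements. The difference was 5.65 ± 4.83 percentage points (SD, n = 3 libraries; exact sign permutation test, two-sided, p = 0.25, the smallest possible), and with the limit at more than 2 cells it was 1.94. It was 1.03 with chains of at least 3 UMIs, 2.08 in cells with exactly 1 TRA and 1 TRB and 3.03 without replicate 3. With the limit at more than 2 cells and with each of these 2 filters, it was positive in 2 of 3 libraries. The lowest library values were -3.08, -11.0 and -11.7. Of the 7 TRAV1 rearrangements in replicate 2, 1 was the germline MAIT-type chain, whose 13 cells had 11 TRBs, so it was not 1 clone. TRAV11 rearrangements of more than 1 cell were 0 of 4, 2 of 4 and 0 of 1, a difference of -3.12 ± 26.1 percentage points (p = 1 in the same exact test). Both of the latter were iNKT-type α chains shared by 2 cells with different TRBs, so they were not clones.

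The clonotype table of the alignment software marks receptors with iNKT or MAIT gene evidence. It marked an iNKT α chain in 1, 5 and 1 clonotypes and a MAIT α chain in 1, 13 and 1 clonotypes. All of this evidence was by gene and 0 of it by junction. A TRB mark joined the α mark in 0 of the 7 iNKT clonotypes and in 6 of the 15 MAIT clonotypes, while a TRB mark of either kind stood on 660 (iNKT) and 1217 (MAIT) of 4141 clonotypes. The β chains of all 7 iNKT-type cells have the composite name TRBV12-2+TRBV13-2, and whether the mark covers that name was not tested. The 0 therefore does not show that these cells lack a partner β chain of iNKT cells.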

How the data were processed

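Droplet-based scTCR-Seq of CD45+ sciatic nerve cells was available as 3 libraries from 4 mice. Per the labels, reads were processed with Cell Ranger on mm10 (GRCm38). The version was not given in the sources used here, and replicate 1's annotation had fewer columns. The authors deposited, per contig, counts of UMIs and reads with V and J genes and CDR3, and, per clonotype, a count of cells and its fraction of cells. Contig lengths were not used. The members and lists were chosen with earlier results of these data known.

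Contigs were kept where called productive and on a barcode called a cell. No doublet caller was run, and cells with more than 1 TRA or TRB were kept. A cell's leading TRB was that with the most UMIs. CDR3s were matched base by base to V and J segments of GRCm38 with GENCODE M21 coordinates. J segments whose match stopped at the same base in at least 70% of at least 10 rearrangements were left out of non-germline counts. Differences were taken within libraries and tested over 3 libraries with an exact two-sided sign permutation test, whose smallest p is 0.25, so none can pass 0.05. For shares the exact 95% interval of Clopper and Pearson was taken, and an absent chain was given the limit of 3 counts: 0.151%, 0.106% and 0.651% for TRAV11D in replicates 1 to 3. The statistics were tested on simulated data, but the error rate of the test was simulated for more than 3 libraries. It therefore does not cover the number used here.

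Named were the 3 V genes, TRAJ18, TRAJ33, other TRAJ in at least 3 rearrangements, the known TRBV partners, every canonical junction and the largest rearrangements per library, and named items beyond these were chosen after their values were seen. Alternatives were the unit counted, a minimum of 3 UMIs, cells with exactly 1 TRA and 1 TRB, the composite TRBV name, TRAV11 alone, other denominators and expansion limits, and leaving out each library. Pairs of TRA and TRB, the same J segment, TRAJ numbers above 45 and second TRAs by chain were added after seeing the data. Consensus files and gene expression were not used here. Work was done with scipy 1.17.1, numpy 2.4.6, pandas 2.3.3 and matplotlib 3.10.9 in Python 3.11.15.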

Additional observations from a re-analysis of the deposited data

Results flagged for a closer look

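Member chains were also found outside the cells compared above. Productive TRAV1 contigs lay on 29 barcodes not called cells in replicate 1 and on 15 in replicate 2, with a median of 1 UMI, and TRAV11 contigs on 4 in replicate 2. Each of these counts is above the 3 that a count of 0 allows. Of the 29, 19 carried the TRAV1-TRAJ27 chain that 3 cells of replicate 1 held, and 6 of the 15 carried TRAV1 joined to TRAJ33. The like counts over all V genes are not given here, and the source of these molecules was not tested.

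Nonproductive TRAV1 contigs were found in 6, 7 and 6 cells of replicates 1, 2 and 3, and nonproductive TRAV11 contigs in 4 cells of replicate 2. Replicate 3 had nonproductive TRAV1 in 6 cells against productive TRAV1 in 5, where replicate 1 had 6 against 18 and replicate 2 had 7 against 49. The like counts over all V genes of each library are not given here, so whether this is particular to TRAV1 was not tested.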

How the results depend on the processing

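Of the 83 alternative values, 4 reversed direction. The TRBV partner difference of iNKT-type cells was -30.2 percentage points with the composite name TRBV12-2+TRBV13-2 not counted as TRBV13, by construction. That of MAIT-type cells was -14.7 without replicate 1 (5.20 and 32.1 without replicates 2 and 3). The difference in TRAV11 rearrangements of more than 1 cell was 6.20 and 2.45 without replicates 1 and 3, and -18.0 without replicate 2. The share of cells with TRAV11 moved from 0.210% to 0.156% among cells with exactly 1 TRA and 1 TRB and to 0.160% of all cells with a TRA or TRB. Leaving out each library gave 0.207% to 0.215% for it and 0.995% to 1.41% for TRAV1. The same range was 47.5 to 84.1 percentage points for TRAJ18 with TRAV11, 8.11 to 16.3 for TRAJ33 with TRAV1, 83.4 to 84.4 and 85.5 to 86.0 for the CDR3 lengths of iNKT-type and MAIT-type chains, 57.6 to 62.1 for the TRBV partners of iNKT-type cells, 3.03 to 7.78 for TRAV1 rearrangements of more than 1 cell, -25.0 to -23.2 for TRAJ numbers above 45 and 3.64 to 19.9 for second TRAs. The other values kept their direction. With at least 3 UMIs per chain, replicate 1 had no iNKT-type and replicate 3 no MAIT-type chain, so the length and partner differences rested on 2 libraries. Differences were paired within libraries, but no comparison between conditions was possible because every library is of the same condition. The number of cells limits every value here: replicates 1 and 3 had 1 iNKT-type and 1 MAIT-type cell each.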
